A study of Mus musculus with 29 samples.

Results

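The genes of sterol and fatty acid synthesis were followed in the colon of 29 mice, across 6 models of colitis and 3 groups of control mice. The set holds 30 genes, chosen by symbol, out of 54532 genes in the count table, and all 30 had enough counts to be tested. It comprises 7 enzymes that make isoprenoid units from acetyl-CoA by way of mevalonate (Acat2, Hmgcs1, Mvk, Pmvk, Mvd, Idi1 and Fdps), 3 that lead through squalene to lanosterol (Fdft1, Sqle and Lss) and 7 that turn lanosterol into cholesterol (Tm7sf2, Msmo1, Nsdhl, Hsd17b7, Ebp, Sc5d and Dhcr7). With these 17 sterol enzymes stand 4 genes of regulation and sterol transport (Insig1, Srebf1, Srebf2 and Stard4) and 9 genes that make, elongate, desaturate or activate fatty acids (Acly, Acaca, Fasn, Elovl6, Scd1, Scd2, Fads1, Fads2 and Acsl3). Poly(A) RNA of whole colon segments was sequenced, with 1 library for each mouse. Mice are named by group and label number, and values run in the order of those numbers (WT control 1, 2 and 4, DSS 5, 6 and 8, DNBS 11, 14 and 16, IL-10 deficiency 1 to 4, Rag2 control 1, 2 and 4, TRUC 2 to 5, Rag1 control 2 to 4, TCT 1, 3 and 5, and anti-CD40 6 to 8).

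Untreated BALB/c mice (WT control, n = 3) served as controls for 3 models on the same background. These were DSS, a sulfated polysaccharide that injures the epithelium, given at 3% in drinking water for 5 days with the cull at day 10 (n = 3), rectal DNBS, a hapten, given as 3 mg in 200 µl of 50% ethanol (n = 3), and blockade of IL-10 by antibody, with a dose of 750 µg and a cull at 4 weeks, named IL-10 deficiency here (n = 4). TRUC mice, BALB/c animals that lack both Tbx21 and Rag2 and develop colitis without treatment (n = 4), were set against untreated BALB/c Rag2-/- mice (n = 3). Mice labelled C57BL/6 Rag1-/- and left untreated (Rag1 control, n = 3) were the controls for 2 groups labelled with the same genotype. TCT mice had received 500000 naive CD4+ T cells and were culled after 6 to 8 weeks (n = 3), and anti-CD40 mice had received 50 µg of agonistic antibody and were culled after 7 days (n = 3). Rag-deficient mice lack T and B lymphocytes and keep their innate immune cells, so that in TCT the T cells came from a donor. The label fields used here hold no ages, although the table's name for the library of TRUC 4 ends in a mark that could be an age, and the study's methods give an age for TCT recipients alone. The methods also describe another strain and an earlier cull for DSS, and an earlier cull for TCT, than the labels do. For mouse colon they describe RNA of the distal region on an Illumina bead array, whereas the libraries used here were sequenced. For the IL-10 model the labels name the antibody target as IL-10 in the treatment field and as the IL-10 receptor in the protocol, whereas the methods describe Il10-/- mice.

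The targeted genes went against some genotype labels. Rag2 had 15 to 25 counts in the Rag2-/- controls and 57 to 94 in TRUC, but also 6 to 20 in the libraries labelled Rag1 control and 48 to 99 in those labelled anti-CD40, with at most 1 count in the other groups. Rag1 had 20 to 33 counts in TCT and at most 4 elsewhere. Tbx21 had 26 to 52 counts in TRUC and 1 to 7 in the Rag2-/- controls, and Il10 had 61 to 111 in IL-10 deficiency and 1 to 4 in the wild-type controls. The libraries labelled Rag1 control therefore carried the Rag2 signal of the Rag2-/- mice and not the Rag1 signal of their TCT partners. By these counts TCT and its labelled controls could be of different mouse lines. A difference of line could not be told apart from the effect of the model. Each TCT and anti-CD40 value below is given against these controls as labelled. Other controls are given where a call of a member was lost against them. Members that passed only against other controls enter the counts below but are not named. Total counts ran from 10725564 to 14977094 per mouse, so that a count of 0 would allow up to 0.179 to 0.314 CPM (gene counts scaled to the size of the library). The lowest count of a member in any mouse was 27, for Fdps.

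Cells obtain cholesterol by uptake or by making it from acetyl-CoA in the endoplasmic reticulum and cytosol. When membrane sterol is low, the SREBP proteins encoded by Srebf1 and Srebf2 leave the endoplasmic reticulum, are cleaved and switch on the genes of the pathway, SREBP-2 acting mainly on sterol enzymes and SREBP-1 mainly on fatty acid synthesis, while INSIG proteins hold them back when sterol is plentiful. SREBP binds sterol regulatory elements in promoters together with factors at CCAAT and GC boxes. In the colon the pathway serves the rapid renewal of the epithelium, among other cells that make lipid.

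RefSeq promoters (GRCm38.p6, 250 bases before to 50 bases after each start site) were available for 23 of the 30 members, with 28 start sites. The letters TCACNCCAC, a form of the sterol regulatory element, were found on either strand in 1 of the 23, Hmgcs1, which is 4.35% of these genes, beside 1.44% of the 27025 genes in the table. The window around it is shown with the element in capitals, from 177 to 89 bases before the start site (chr13:119690174-119690262, plus strand, GRCm38.p6).
Hmgcs1: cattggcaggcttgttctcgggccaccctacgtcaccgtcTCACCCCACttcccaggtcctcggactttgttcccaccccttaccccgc
CCAAT was present in 19 of the 23 members (82.6%) and in 41.1% of all genes, GGGCGG (the GC box) in 19 (82.6%) and 38.2%, and CACGTG (an E box) in 4 (17.4%) and 8.09%. Over protein-coding genes alone the shares were 1.41% for TCACNCCAC, 42.3% for CCAAT, 49.2% for GGGCGG and 8.91% for CACGTG. None of the matches in the members overlapped a match to another of the motifs. Mvk held the most CCAAT letters, 5, followed by Hmgcs1 and Nsdhl with 4. The stretches below hold 3 or more CCAAT boxes before the start site and lack TCACNCCAC. They were picked after the motifs had been counted, to show how densely these letters can lie, and the capitals mark CCAAT or its reverse complement ATTGG on the strand of the gene.
Mvk (chr5:114444086-114444268, plus strand): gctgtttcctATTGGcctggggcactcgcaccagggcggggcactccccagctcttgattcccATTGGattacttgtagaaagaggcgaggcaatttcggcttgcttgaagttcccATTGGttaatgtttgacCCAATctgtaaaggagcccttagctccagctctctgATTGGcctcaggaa
Msmo1 (chr8:64733619-64733748, minus strand): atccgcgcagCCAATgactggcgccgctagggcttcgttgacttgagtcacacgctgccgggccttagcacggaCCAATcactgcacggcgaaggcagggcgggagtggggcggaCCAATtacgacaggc
Hsd17b7 (chr1:169969206-169969380, minus strand): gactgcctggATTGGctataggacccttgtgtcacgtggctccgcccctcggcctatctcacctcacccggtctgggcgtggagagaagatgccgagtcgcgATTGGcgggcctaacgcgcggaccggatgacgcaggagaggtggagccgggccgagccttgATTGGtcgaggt
Fasn (chr11:120824592-120824647, minus strand): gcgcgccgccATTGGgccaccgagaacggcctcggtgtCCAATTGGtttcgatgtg
In Fasn, a pair of the boxes overlap in the letters CCAATTGG. These are matches of letters in the promoter and were not tested as binding sites.

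In the untreated wild-type colon the members differed widely in level. Exon length was the union of all annotated exons of a gene, so that the order below depends on the annotation as well. Per kilobase of exon, Scd2, a stearoyl-CoA desaturase, was the most abundant at 222 ± 38.8 CPM per kb (SD, n = 3), followed by Acly, the ATP citrate lyase that supplies cytosolic acetyl-CoA, at 124 ± 2.88, Fads2, a desaturase of polyunsaturated fatty acids, at 97.2 ± 6.49, and Acsl3, a long-chain acyl-CoA synthetase, at 75.9 ± 5.27. Each of these 4 levels lay apart from the next in every control mouse. Among sterol enzymes Hmgcs1 stood highest at 51.0 ± 11.8 CPM per kb and Fdps, as counted, lowest at 1.54 ± 0.497. Part of the Fdps transcript sequence (26.2%) occurs also in other genes, so that its counts and its place here are uncertain. Of the 29 neighbouring pairs in this order, 21 overlapped between mice and do not differ beyond that spread.

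Most sterol enzymes rose in TRUC, in IL-10 deficiency and in anti-CD40, while few did in the other models. Differences between each model and its control were tested with edgeR's quasi-likelihood test and Benjamini-Hochberg adjustment over 18616 genes, and a gene is said to have risen or fallen where the adjusted p was under 0.05. In TRUC 18 of the 30 members rose and 2 fell, beside 22.4% of all genes tested that rose and 23.4% that fell. IL-10 deficiency gave the same counts, 18 up and 2 down, on a background of 27.2% and 26.1%. In anti-CD40 12 rose and 1 fell (all genes, 10.9% and 10.7%). TCT had 4 up and 4 down (16.1% and 14%), DSS 1 up and 10 down (17.7% and 16.3%), and DNBS 0 up and 1 down (3.95% and 2.21%). At an unadjusted p under 0.05, 6 members were higher in DNBS, all of them sterol enzymes, and DESeq2 called 6 as higher after adjustment. The shares of all genes at these settings are not given here, and the 3.95% does not serve for them.

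**Figure D1:**
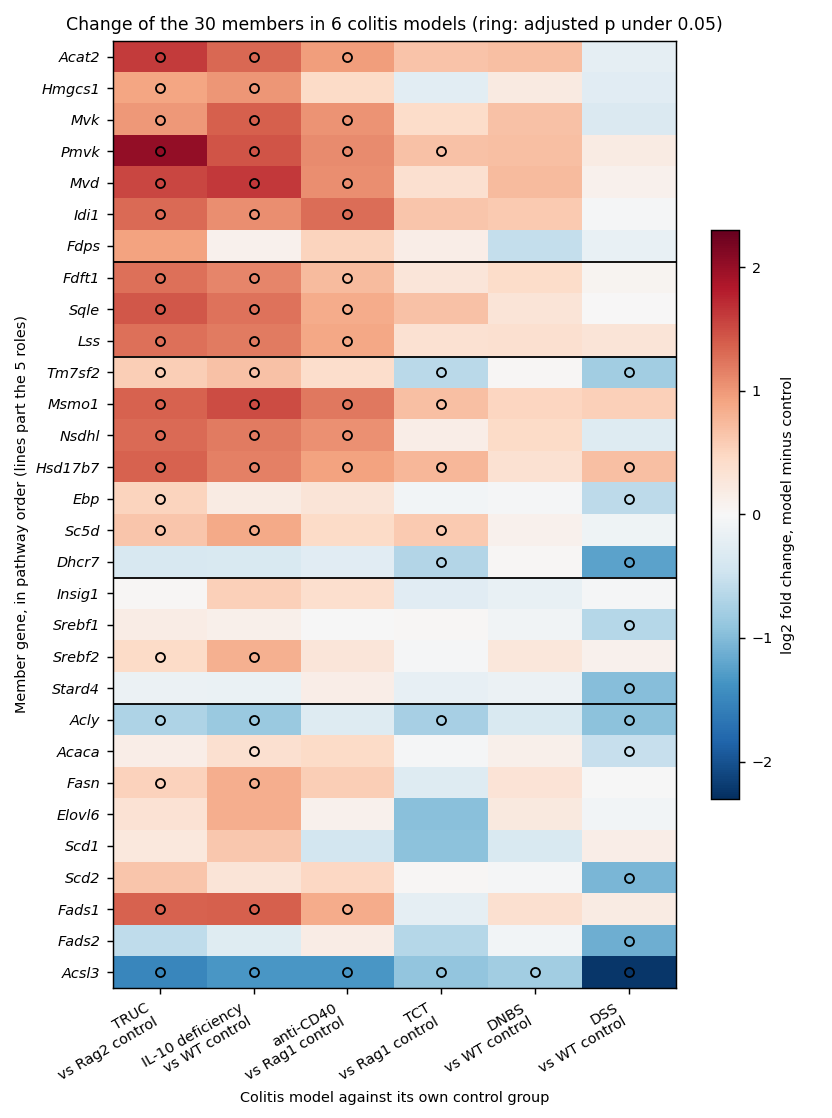
Heat map of the log2 fold change (model minus its own control) of the 30 members, rows in pathway order and columns the 6 colitis models, with rings where the adjusted p was under 0.05. TRUC, IL-10 deficiency and anti-CD40 show rings on 15, 14 and 11 of the 17 sterol enzymes, whereas Acsl3 in the bottom row is ringed as lower in all 6 columns.

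Over the 17 sterol enzymes the median log2 fold change was 1.27 in TRUC (15 rose, 0 fell), 1.16 in IL-10 deficiency (14 and 0) and 0.88 in anti-CD40 (11 and 0). It was 0.36 in both TCT (4 rose, 2 fell) and DNBS (0 and 0) and -0.09 in DSS (1 rose, 3 fell), while the median over all genes tested lay between -0.03 and 0.02 in the 6 comparisons. Over the 9 fatty acid genes 2 rose and 2 fell in TRUC, 3 and 2 in IL-10 deficiency, 1 and 1 in anti-CD40, 0 and 2 in TCT, 0 and 1 in DNBS and 0 and 5 in DSS. In whole tissue, fewer cells of a type and less RNA per cell cannot be told apart.

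The largest rise of any member was that of a mevalonate enzyme. Pmvk, phosphomevalonate kinase, stood at 35.2, 30.4 and 31.5 CPM in the wild-type controls, 38.4, 30.5 and 41.6 in DSS, 39.8, 43.6 and 73.3 in DNBS and 96.5, 93.3, 59.3 and 104 in IL-10 deficiency. Pmvk read 24.8, 27.01 and 26.96 CPM in the Rag2-/- controls and 92.8, 114, 112 and 109 in TRUC. Pmvk read 43.05, 45.5 and 33.6 CPM in the Rag1 controls, 52.3, 69.6 and 72.6 in TCT and 102, 108 and 50.1 in anti-CD40. All mice of DNBS, IL-10 deficiency, TRUC, TCT and anti-CD40 lay above all of their controls, and only those of DSS overlapped with theirs. In TRUC the rise was 4.07-fold (2.02 ± 0.24 on the log2 scale, estimate of the fit ± SE, adjusted p = 1.42e-06). Pmvk also rose in IL-10 deficiency (1.45 ± 0.24, adjusted p = 2.93e-05), anti-CD40 (1.09 ± 0.24, 0.00299) and TCT (0.67 ± 0.24, 0.0389). The TCT call was lost when any of TCT 3, TCT 5 or Rag1 controls 2, 3 and 4 was left out, with adjusted p values from 0.0522 to 0.145.

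Mvk, mevalonate kinase, the enzyme just before Pmvk, had 35.97, 28.5 and 38.1 CPM in the wild-type controls, 30.02, 32.1 and 19.3 in DSS, 45.3, 59.9 and 59.4 in DNBS and 97.8, 86.7, 75.4 and 94.9 in IL-10 deficiency. Mvk measured 37.4, 50.97 and 39.2 CPM in the Rag2-/- controls against 73.1, 90.4, 86.2 and 89.8 in TRUC. Mvk measured 50.6, 48.1 and 30.4 CPM in the Rag1 controls, 53.5, 69.8 and 50.2 in TCT and 93.9, 112 and 58.99 in anti-CD40. It rose in IL-10 deficiency (1.38 ± 0.21, adjusted p = 1.87e-05), anti-CD40 (1.04 ± 0.22, 0.0021) and TRUC (1.00 ± 0.21, 0.000593), in each case without overlap between the mice. DNBS mice also lay above all wild-type controls, at 0.68 ± 0.22 with an adjusted p of 0.0654.

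Mvd, the decarboxylase that yields isopentenyl diphosphate, was at 62.9, 48.8 and 65.6 CPM in the wild-type controls, 70.6, 67.3 and 50.7 in DSS, 80.9, 108 and 104 in DNBS and 178, 156, 164 and 232 in IL-10 deficiency. Mvd was at 58.9, 55.02 and 58.5 CPM in the Rag2-/- controls and at 134, 199.7, 168 and 166 in TRUC. Mvd was at 94.6, 80.9 and 41.998 CPM in the Rag1 controls, 95.6, 98.7 and 85.3 in TCT and 153, 215 and 90.5 in anti-CD40. Its rise in IL-10 deficiency, 3.09-fold, was the largest of any member there (1.63 ± 0.25, adjusted p = 1.51e-05), and it rose in TRUC as well (1.54 ± 0.25, 4.2e-05). In anti-CD40 Mvd rose by the test (1.08 ± 0.26, 0.00469) although the lowest treated mouse lay below the highest control, and the adjusted p was 0.0653 without anti-CD40 mouse 7 and 0.0821 with DESeq2.

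Idi1, the isomerase of isopentenyl diphosphate, had 66.7, 46.9 and 59.7 CPM in the wild-type controls, 60.4, 66.4 and 42.9 in DSS, 72.4, 87.2 and 102 in DNBS and 143, 119, 116 and 107 in IL-10 deficiency. Idi1 had 62.2, 66.8 and 67.4 CPM in the Rag2-/- controls and 131, 169, 179.7 and 163 in TRUC. Idi1 had 72.6, 60.04 and 36.1 CPM in the Rag1 controls, 73.4, 106 and 82.2 in TCT and 143, 186 and 81.2 in anti-CD40. The increases in TRUC (1.29 ± 0.24, adjusted p = 0.000152), anti-CD40 (1.28 ± 0.25, 0.000983) and IL-10 deficiency (1.07 ± 0.24, 0.00063) separated all mice from their controls.

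Acat2, the cytosolic thiolase that opens the pathway, was measured at 53.3, 38.8 and 43.3 CPM in the wild-type controls, 52.6, 41.98 and 22.9 in DSS, 67.5, 62.3 and 89.7 in DNBS and 133, 113, 100.3 and 104 in IL-10 deficiency. Acat2 reached 106, 135, 154 and 143 CPM in TRUC from 41.1, 46.2 and 44.6 in the Rag2-/- controls. Acat2 was at 62.5, 54.5 and 43.5 CPM in the Rag1 controls, 64.8, 106 and 82.1 in TCT and 118, 146 and 48.7 in anti-CD40. It rose in TRUC (1.61 ± 0.28, adjusted p = 0.0001), IL-10 deficiency (1.32 ± 0.28, 0.000451) and anti-CD40 (0.96 ± 0.29, 0.0208), and the last call was lost without any of anti-CD40 mice 6 and 7 or Rag1 controls 3 and 4, with adjusted p values from 0.0623 to 0.188, and was at 0.116 with DESeq2 and 0.0504 with the 2 groups alone. Counts of Acat2 are uncertain, because 39.1% of the 50-base windows of its transcripts occur also in Acat3 or Tcp1. The same holds, with shares between 9.87% and 30.4%, for Acaca, Fdft1, Fdps, Idi1, Hmgcs1 and Tm7sf2.

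Hmgcs1, the synthase of HMG-CoA whose promoter window is shown above, rose in IL-10 deficiency (1.02 ± 0.27, adjusted p = 0.00301) and TRUC (0.92 ± 0.27, 0.00795), from means of 234 and 238 CPM in the controls to 475 and 448. In the other 4 models its log2 fold changes lay between -0.27 in DSS and 0.45 in anti-CD40 and did not pass the test. Fdps, which builds farnesyl diphosphate, was the least abundant member as counted. It passed in no comparison, with values from -0.54 in DNBS to 0.93 in TRUC. Of the windows of its transcripts, 26.2% occur also in 8 other genes, led by Gm43738, so that its counts are uncertain. Whether this lowered its level or hid a change was not tested.

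**Figure D2:**
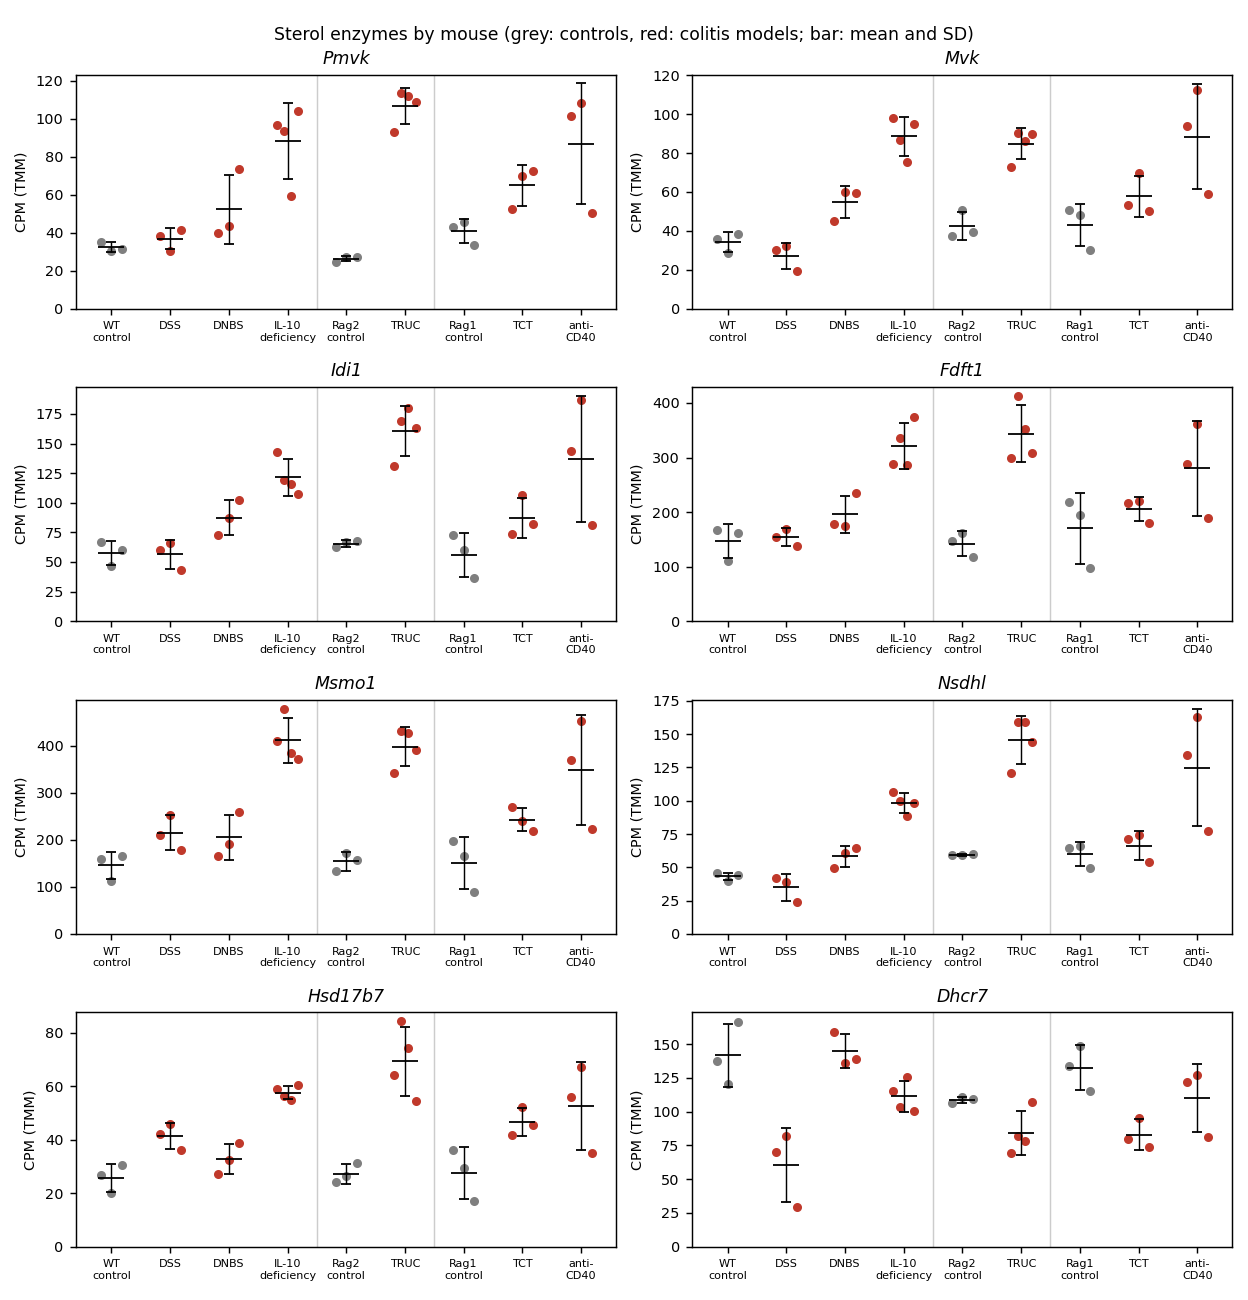
CPM of 8 sterol enzymes by mouse in the 9 groups, on linear axes from 0, with grey points for control mice, red points for colitis mice and bars for the mean and SD of each group. For Pmvk the 4 TRUC mice lie between 92.8 and 114 CPM and the Rag2-/- controls between 24.8 and 27.01, and in most panels 1 anti-CD40 mouse lies near its controls while Dhcr7 runs from 29.5 to 82.1 CPM in DSS, where it fell.

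The 3 enzymes from farnesyl diphosphate to lanosterol rose in the same 3 models. Fdft1, squalene synthase, had 167, 111 and 162 CPM in the wild-type controls, 155, 169.7 and 138 in DSS, 178, 175 and 235 in DNBS and 287, 336, 287 and 375 in IL-10 deficiency. Fdft1 showed 148, 162 and 118 CPM in the Rag2-/- controls and 299, 413, 353 and 309 in TRUC. Fdft1 showed 219, 194 and 97.3 CPM in the Rag1 controls, 216, 220.1 and 179.8 in TCT and 288, 362 and 189.7 in anti-CD40. All TRUC, IL-10 deficiency and DNBS mice lay above their controls, while anti-CD40 mouse 8 lay among its own. Fdft1 rose in TRUC (1.27 ± 0.23, adjusted p = 0.000144), IL-10 deficiency (1.13 ± 0.23, 0.000307) and anti-CD40 (0.72 ± 0.24, 0.0342). Sqle, the epoxidase that adds oxygen to squalene, rose by 1.42, 1.25 and 0.86 in the same order, and Lss, which closes the rings to lanosterol, by 1.27, 1.19 and 0.88. None of the 3 passed in TCT, DNBS or DSS, where the 9 values lay between 0.00 and 0.67. In anti-CD40 the calls of all 3 were lost without mouse 6, without mouse 7 or without Rag1 control 4, and those of Fdft1 and Lss also without Rag1 control 3, with adjusted p values from 0.0505 to 0.334. All 3 were also lost with DESeq2 (adjusted p from 0.184 to 0.266) and with the 2 groups fitted alone (0.0789 to 0.12).

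From lanosterol to cholesterol the enzymes divided. Msmo1, the sterol methyl oxidase, was at 159, 113 and 166 CPM in the wild-type controls, 212, 254 and 179.6 in DSS, 166, 191 and 259.6 in DNBS and 411, 479, 385 and 373 in IL-10 deficiency. Msmo1 was at 134, 173 and 158 CPM in the Rag2-/- controls and 343, 432, 427 and 391 in TRUC. Msmo1 was at 198, 166 and 88.6 CPM in the Rag1 controls, 269.7, 241 and 219 in TCT and 369, 453 and 223 in anti-CD40. Every mouse of DSS, IL-10 deficiency, TRUC, TCT and anti-CD40 exceeded all of its controls. The rise passed in IL-10 deficiency (1.49 ± 0.24, adjusted p = 2.28e-05), TRUC (1.36 ± 0.24, 8.53e-05), anti-CD40 (1.21 ± 0.25, 0.00143) and TCT (0.69 ± 0.24, 0.0339), and in DSS the adjusted p was 0.0798 (0.56 ± 0.24). The TCT call was lost without TCT 1, TCT 3 or Rag1 control 4, at adjusted p values from 0.0624 to 0.188, and with the 2 groups alone (0.0621).

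Nsdhl, the dehydrogenase that acts next, had 45.6, 39.8 and 43.96 CPM in the wild-type controls, 42.1, 39.04 and 23.7 in DSS, 49.6, 60.8 and 64.7 in DNBS and 106, 99.6, 88.5 and 98.5 in IL-10 deficiency. Nsdhl had 58.97, 59.002 and 59.96 CPM in the Rag2-/- controls and 121, 159, 159 and 144 in TRUC. Nsdhl had 64.7, 65.9 and 49.2 CPM in the Rag1 controls, 71.1, 74.2 and 53.7 in TCT and 134, 163 and 76.9 in anti-CD40. It rose in TRUC (1.30 ± 0.20, adjusted p = 2.63e-05), IL-10 deficiency (1.19 ± 0.20, 4.47e-05) and anti-CD40 (1.06 ± 0.21, 0.00115), without overlap of the mice, and had the smallest p of all members in the test of whether the 6 models changed alike (adjusted p = 8.69e-06).

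Hsd17b7, the keto reductase that follows, read 26.7, 20.05 and 30.4 CPM in the wild-type controls, 41.98, 45.8 and 36.1 in DSS, 27.2, 32.5 and 38.6 in DNBS and 58.8, 56.2, 54.8 and 60.4 in IL-10 deficiency. Hsd17b7 read 24.1, 26.3 and 31.2 CPM in the Rag2-/- controls and 64.3, 84.2, 74.3 and 54.4 in TRUC. Hsd17b7 read 36.2, 29.2 and 17.04 CPM in the Rag1 controls, 41.8, 52.2 and 45.6 in TCT and 55.8, 67.1 and 34.9 in anti-CD40. It rose in 5 of the 6 models, more than any other member. The values were 1.35 ± 0.22 in TRUC (adjusted p = 4.99e-05), 1.16 ± 0.22 in IL-10 deficiency (0.000149), 0.93 ± 0.23 in anti-CD40 (0.00594), 0.76 ± 0.23 in TCT (0.0146) and 0.68 ± 0.23 in DSS (0.0242). It was the only member that rose in DSS, and that call was lost without DSS 5, DSS 6, WT control 1 or WT control 2 (adjusted p from 0.0516 to 0.13). The TCT call was lost without TCT 3 or Rag1 control 4 (0.0569 and 0.0951), and the anti-CD40 call without mouse 7 (0.0631).

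Dhcr7, the reductase that completes cholesterol, rose in no model. Dhcr7 stood at 138, 120.5 and 167 CPM in the wild-type controls, 70.1, 82.1 and 29.5 in DSS, 159, 136 and 139 in DNBS and 115, 103, 126 and 101 in IL-10 deficiency. Dhcr7 came to 106, 111 and 109 CPM in the Rag2-/- controls and 69.2, 82.03, 78.5 and 107 in TRUC. Dhcr7 came to 134, 149 and 115 CPM in the Rag1 controls, 79.6, 95.4 and 73.5 in TCT and 122, 127 and 80.8 in anti-CD40. It fell 2.33-fold in DSS (-1.22 ± 0.24, adjusted p = 0.000473) and 1.60-fold in TCT (-0.68 ± 0.24, 0.0337). The fall in TCT was lost without TCT 1, TCT 5, Rag1 control 2 or Rag1 control 3 (adjusted p from 0.0711 to 0.125) and against the Rag2-/- controls (-0.39, adjusted p = 0.217). In TRUC, IL-10 deficiency and anti-CD40, where most other sterol enzymes rose, Dhcr7 was at -0.37, -0.35 and -0.27 and did not pass.

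Tm7sf2, a sterol reductase, and Ebp, a sterol isomerase, rose in some models and fell in others. Tm7sf2 rose in IL-10 deficiency (0.68 ± 0.20, adjusted p = 0.006) and TRUC (0.57 ± 0.20, 0.0202) and fell in DSS (-0.80 ± 0.21, 0.00537) and TCT (-0.62 ± 0.21, 0.0271). Tm7sf2 counts share windows with Vps51, and the fall in DSS had an adjusted p of 0.096 when the 2 groups were fitted alone and 0.0518 with DESeq2. The TCT fall had adjusted p values of 0.333 against the Rag2-/- and 0.663 against the wild-type controls, and between 0.0643 and 0.148 without TCT 1, TCT 5 or Rag1 controls 2 and 3. Without TRUC 5 or Rag2 control 4, the TRUC rise had adjusted p values of 0.0505 and 0.0679. Ebp rose in TRUC (0.51 ± 0.12, 0.00162) and fell in DSS (-0.61 ± 0.13, 0.000913), with no overlap between mice in either. Sc5d, the lathosterol desaturase, rose in IL-10 deficiency (0.87 ± 0.16, 0.000118), TRUC (0.65 ± 0.16, 0.00224) and TCT (0.60 ± 0.17, 0.00896), the last with an adjusted p of 0.0552 without Rag1 control 4 and of 0.3 against the wild-type controls (0.23).

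Among the regulators, Srebf2, which encodes SREBP-2, rose in 2 models. Srebf2 had 205, 203 and 291 CPM in the wild-type controls, 227, 229 and 296 in DSS, 268, 273 and 301 in DNBS and 363, 413, 386 and 472 in IL-10 deficiency. Srebf2 gave 216, 264 and 217 CPM in the Rag2-/- controls and 314, 344, 303 and 300.5 in TRUC. Srebf2 gave 278, 352 and 293 CPM in the Rag1 controls, 352, 290.1 and 260.4 in TCT and 354, 417 and 350.3 in anti-CD40. It rose 1.75-fold in IL-10 deficiency (0.81 ± 0.14, adjusted p = 6.31e-05) and 1.36-fold in TRUC (0.44 ± 0.14, 0.0125), where without Rag2 control 1 or 4 the adjusted p was 0.0606 or 0.0565. In anti-CD40, where 11 sterol enzymes rose, it was at 0.28 ± 0.15 with an adjusted p of 0.179. Its mean there was 374 CPM, against 308 in the Rag1 controls and 232 in the Rag2-/- controls, so that this result depends on the control used.

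Srebf1, the gene of SREBP-1, and Stard4, a soluble sterol carrier, passed in DSS alone, where they fell by 0.66 ± 0.21 (adjusted p = 0.0167) and 0.98 ± 0.24 (0.00341) on the log2 scale. The Srebf1 fall had adjusted p values of 0.11 without DSS 8 and 0.112 without WT control 4, and with the 2 groups fitted alone it was 0.0503 for Srebf1 and 0.0836 for Stard4. Insig1, which retains SREBP in the endoplasmic reticulum and is itself an SREBP target, passed in no model, with log2 fold changes between -0.26 (TCT) and 0.55 (IL-10 deficiency) and standard errors of 0.30 to 0.32. In IL-10 deficiency its 4 mice (268, 241, 242 and 255 CPM) nonetheless lay above all wild-type controls (204, 154 and 159 CPM).

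Of the 9 fatty acid genes, Acsl3 fell in 6 models and Acly in 4, Fads1 rose in 3 and Fasn in 2, and the other 5 passed in at most 1 model in a direction. Acsl3, the long-chain acyl-CoA synthetase of the endoplasmic reticulum and lipid droplets, was at 321, 357 and 314 CPM in the wild-type controls, 69.7, 89.8 and 50.7 in DSS, 214, 185 and 168 in DNBS and 149, 129, 125 and 122 in IL-10 deficiency. Acsl3 ran from 229, 249 and 293 CPM in the Rag2-/- controls to 84.6, 80.3, 95.1 and 105 in TRUC. Acsl3 was at 260.2, 174 and 164 CPM in the Rag1 controls, 129.9, 111 and 76.4 in TCT and 70.6, 67.5 and 98.2 in anti-CD40. It was the only member to pass in all 6 models, and in each of them every colitis mouse lay below every control. The fall was 4.72-fold in DSS (-2.24 ± 0.21, adjusted p = 2.77e-07), 2.82-fold in TRUC (-1.49 ± 0.19, 2.93e-06), 2.53-fold in anti-CD40 (-1.34 ± 0.21, 0.000123) and 2.52-fold in IL-10 deficiency (-1.33 ± 0.19, 6.41e-06). It was smaller in TCT (-0.91 ± 0.20, 0.00146) and DNBS (-0.81 ± 0.20, 0.0212), and the DNBS call was lost without DNBS 14, DNBS 16, WT control 1 or WT control 2 (adjusted p from 0.0711 to 0.101). The size of the fall differed among the 6 models (equal contrasts, adjusted p = 0.000115).

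Acly, ATP citrate lyase, stood at 653, 638 and 668 CPM in the wild-type controls, 376, 393 and 248 in DSS, 547, 489 and 508 in DNBS and 440.3, 363, 441 and 200.2 in IL-10 deficiency. Acly was at 712, 721 and 676 CPM in the Rag2-/- controls and 391, 419.6, 431 and 483 in TRUC. Acly was at 785, 896 and 668 CPM in the Rag1 controls, 379, 580.3 and 432 in TCT and 649.7, 665 and 599 in anti-CD40. Here too no colitis mouse reached its controls in any model. The fall passed in DSS (-0.95 ± 0.21, adjusted p = 0.00128), IL-10 deficiency (-0.85 ± 0.19, 0.000771), TCT (-0.76 ± 0.21, 0.00752) and TRUC (-0.70 ± 0.19, 0.00463), and it did not in DNBS (-0.34 ± 0.21) or anti-CD40 (-0.30 ± 0.21). Against the wild-type controls, TCT had an adjusted p of 0.0726 (-0.49).

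Fads1, a desaturase of polyunsaturated fatty acids, rose in the same 3 models as most sterol enzymes. Fads1 had 24.996, 24.04 and 27.3 CPM in the wild-type controls, 25.5, 32.5 and 28.7 in DSS, 28.96, 28.5 and 40.9 in DNBS and 85.8, 63.5, 64.4 and 49.2 in IL-10 deficiency. Fads1 rose to 69.98, 72.2, 84.1 and 97.1 CPM in TRUC from 29.8, 32.1 and 32.6 in the Rag2-/- controls. Fads1 was at 50.8, 58.1 and 51.1 CPM in the Rag1 controls, 31.7, 52.6 and 53.8 in TCT and 107, 128 and 54.5 in anti-CD40. The rises were 1.37 ± 0.23 in IL-10 deficiency (adjusted p = 4.48e-05), 1.36 ± 0.23 in TRUC (6.91e-05) and 0.86 ± 0.24 in anti-CD40 (0.0124), the last lost without mouse 7 (0.126). Fads2, its partner in the same route, rose in none and fell in DSS (-1.12 ± 0.35, 0.0155, and 0.106 without DSS 8).

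Fasn, the fatty acid synthase, rose in IL-10 deficiency (0.83 ± 0.22, adjusted p = 0.00288), and in TRUC (0.53 ± 0.22, 0.0488) only narrowly, since without Rag2 control 1, 2 or 4 or TRUC 3 or 5 the adjusted p lay between 0.0581 and 0.205. In anti-CD40, where it did not pass, mean Fasn was 406 CPM, against 272 in the Rag1 controls and 191 in the Rag2-/- controls. Acaca, the acetyl-CoA carboxylase before it, fell in DSS (-0.52 ± 0.17, 0.0175) and rose in IL-10 deficiency (0.37 ± 0.16, 0.0471). The Acaca fall was lost without DSS 8 or WT control 4 (0.133 and 0.0745) or with the 2 groups alone (0.065), and the rise without any of the 4 IL-10 deficiency mice, WT control 1 or WT control 2 (0.0641 to 0.201) or under another filter on low counts (0.0657 and 0.0789). Scd2 fell in DSS (-1.05 ± 0.32, 0.0144), with adjusted p values of 0.0733 without DSS 8, 0.0596 without WT control 4, 0.0538 with DESeq2 and 0.126 with the 2 groups alone. Scd1, the other desaturase of this kind, and Elovl6, which elongates palmitate, passed in no model, with standard errors from 0.38 to 0.42.

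**Figure D3:**
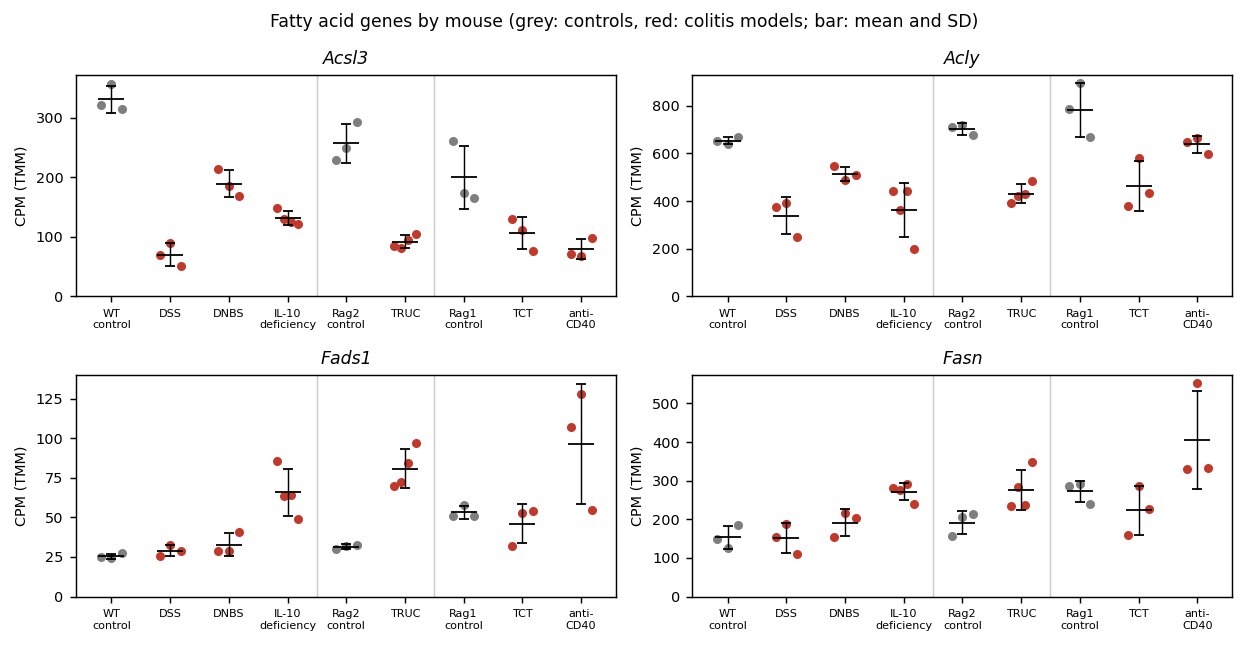
CPM of Acsl3, Acly, Fads1 and Fasn by mouse in the 9 groups, on linear axes from 0, with grey points for control mice, red points for colitis mice and bars for mean and SD. Acsl3 runs from 314 to 357 CPM in the wild-type controls and from 50.7 to 89.8 in DSS, and in every model its red points lie under the grey points of the matching control.

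Whether the 6 models changed a gene equally was tested directly, with an F test in the edgeR fit that the 6 log2 fold changes were the same, adjusted over all genes. The models differed for 27 of the 30 members, beside 60.5% of all genes tested. Fdps, Insig1 and Scd1 were the 3 that did not pass. After Nsdhl the smallest adjusted p values were those of Tm7sf2 (9.24e-06), Mvk (2.26e-05) and Fads1 (3.89e-05). Since the 3 models on wild-type mice share their controls, as do TCT and anti-CD40, a shift in those controls would move these comparisons together.

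Summed over the 17 enzymes, levels were 1516, 1148 and 1560.2 CPM in the wild-type controls, 1389, 1539 and 1034 in DSS, 1586, 1668 and 2043 in DNBS, and 2927, 2934, 2633 and 3099 in IL-10 deficiency. The sums were 1289.98, 1420.4 and 1342 CPM in the Rag2-/- controls and 2469, 3219.55, 3036 and 2864 in TRUC. They were 1879, 1709 and 1001 CPM in the Rag1 controls, 1825, 2034 and 1651 in TCT, and 2714, 3291 and 1620.04 in anti-CD40. Anti-CD40 mouse 7 had the highest and mouse 8 the lowest value of its group for 17 of the 17 enzymes, and Rag1 control 4 was lowest for 17 of 17, WT control 2 for 16, TRUC 2 for 15 and DSS 8 for 15. In other groups the order differed between enzymes, IL-10 deficiency mouse 4 being highest for 8 and lowest for 4, Rag2 control 2 highest for 11 and lowest for 3, and DNBS 14 highest for 3 and lowest for 6. In the fatty acid sum, too, DSS 8 was lowest (907 CPM, against 1777 and 1924 in the other 2).

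**Figure D4:**
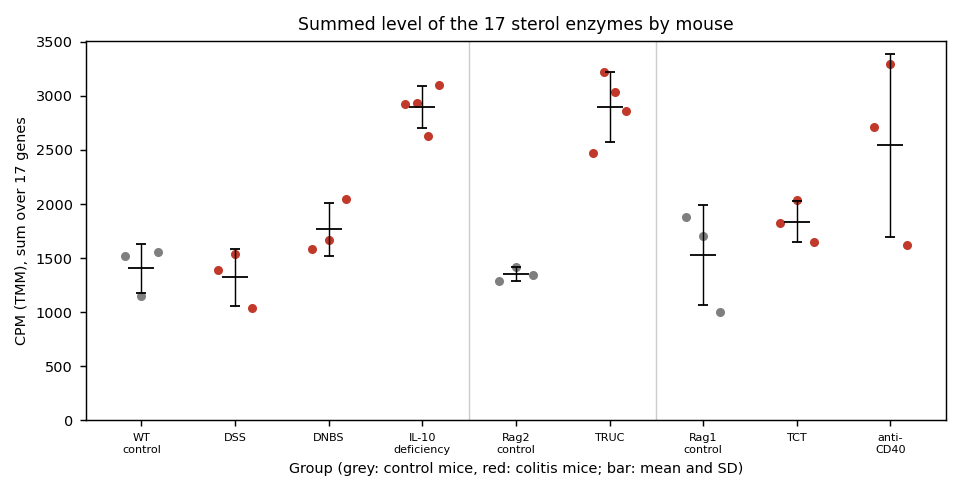
Summed CPM of the 17 sterol enzymes for each mouse in the 9 groups, on a linear axis from 0, with grey points for controls, red points for colitis mice and bars for mean and SD. TRUC and IL-10 deficiency mice lie between 2469 and 3219.55 CPM, apart from their controls, while anti-CD40 spans from 1620.04 to 3291 CPM and overlaps with the Rag1 controls.

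Leaving out single mice, or changing the method or the controls, moved some of the counts. The shares of all genes above hold for the fit of all mice with the labelled controls. Shares for the other settings are not given here, so that these counts cannot be set against them. The 12 members that rose in anti-CD40 were 5 without anti-CD40 mouse 7, 8 with DESeq2 or with the 2 groups fitted alone, and 17 against the Rag2-/- controls. In TCT the 4 that rose became 0 without Rag1 control 4 and 1 without TCT 3, and 7 against either the Rag2-/- or the wild-type controls, and the 4 that fell became 2 without TCT 5 or Rag1 control 2 or 3. The 10 that fell in DSS were 6 without DSS 8. In DNBS 2 rose without DNBS 11, and the single fall there was lost without DNBS 14, DNBS 16, WT control 1 or WT control 2. In TRUC and IL-10 deficiency the number that rose stayed between 16 and 18 whichever mouse was left out.

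Some markers of other cells shifted between the same groups. Beside the marker counts here and below stand the shares of all genes that rose and fell. These were 22.4% and 23.4% in TRUC, 27.2% and 26.1% in IL-10 deficiency and 10.9% and 10.7% in anti-CD40. They were 16.1% and 14% in TCT, 17.7% and 16.3% in DSS and 3.95% and 2.21% in DNBS. Where 1 or 2 genes of a list were called, the count can lie near these shares. Epithelial markers (7 genes, Epcam to Cldn7) summed to 10884 to 11691 CPM in the Rag2-/- controls and 13116 to 14119 in TRUC, with 4 of 7 risen, and to 8710.1 to 10345 in the wild-type controls, 12890.1 to 17233 in IL-10 deficiency (6 risen) and 6372 to 8006 in DSS (3 fallen), while 2 rose in anti-CD40, 1 in DNBS and 0 in TCT. The mean sterol enzyme sum was 2.14-fold that of the controls in TRUC and the epithelial sum 1.21-fold, and the corresponding values were 2.06-fold and 1.56-fold in IL-10 deficiency. Per 100 CPM of epithelial markers, the sterol enzymes came to 18.8 to 23.9 CPM in TRUC and 11.9 to 12.3 in its controls, and to 17.98 to 22.7 in IL-10 deficiency and 13.2 to 17.1 in its controls, without overlap in either. In DSS, where few sterol enzymes rose, the ratio ran from 16.2 to 21.2 and overlapped with the wild-type controls, the mean sterol sum being 0.938-fold and the epithelial sum 0.749-fold that of the controls, and in DNBS it ran from 16.8 to 17.2. In anti-CD40 this ratio ran from 13.9 to 25.9, in TCT from 15.2 to 16.4, and in the Rag1 controls from 9.61 to 17.7.

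Adipocyte markers (10 genes), which matter here because fat cells make fatty acids, summed to 122 to 446 CPM in the Rag2-/- controls and 105 to 146 in TRUC (9 of 10 fallen, 1 risen). They came to 265 to 472 CPM in the Rag1 controls, 82.8 to 125 in TCT (7 fallen) and 49.9 to 193 in anti-CD40 (3 fallen, with Lep without a count). In the wild-type family they ran from 89.0 to 152 CPM in controls, 155 to 229 in DSS (2 risen), 69.3 to 112 in DNBS (0 called) and 81.0 to 215 in IL-10 deficiency (2 risen, 1 fallen). Smooth muscle markers (6 genes) fell in IL-10 deficiency (5) and TRUC (2), and surface colonocyte markers (6 genes) in TRUC (4 fallen, 1 risen), TCT (2 fallen, 1 risen), and DSS, IL-10 deficiency and anti-CD40 (1 fallen, 1 risen each). Macrophage markers (6 genes) rose in TRUC and DSS (6 each), TCT (5), and IL-10 deficiency and anti-CD40 (2 each, with 1 fallen in IL-10 deficiency), and neutrophil markers (6 genes) rose in all models, 6 in TRUC and DSS and 5 in each of the others.

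Proliferation markers (5 genes) rose in TRUC (5), DNBS (2), IL-10 deficiency (2) and DSS (1). Clock genes that rise with Dbp (7 genes) summed to 346 to 532 CPM in the Rag2-/- controls and 28.0 to 33.6 in TRUC, where 6 fell, and 4 of the 5 that rise with Bmal1 rose there. In the other comparisons at most 5 of these clock genes passed in a direction. Of 4 fasting-response genes tested, 2 fell in TRUC, 1 rose in DNBS, and 1 rose and 1 fell in both DSS and IL-10 deficiency. Squamous markers (6 genes) rose in DNBS (4), TRUC (2) and DSS (1), Schwann cell and glial markers (4 genes) fell in IL-10 deficiency (4), TRUC and anti-CD40 (3 each) and TCT (1) and rose in DSS (1), and of the sebaceous and pancreatic lists only 2 and 1 genes were abundant enough to test. In the sebaceous pair 1 rose and 1 fell in IL-10 deficiency and TCT and 1 fell in DSS, and the pancreatic gene fell in every model but DNBS. What part any of these shifts had in the changes of the members was not tested.

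Beyond the 30 members, 48 of 49 other genes of the pathway were tested, and those that passed in 3 or more models in a direction are named. The shares of all genes that rose and fell, to read beside these counts, were 22.4% and 23.4% in TRUC, 27.2% and 26.1% in IL-10 deficiency, 10.9% and 10.7% in anti-CD40, 16.1% and 14% in TCT, 17.7% and 16.3% in DSS, and 3.95% and 2.21% in DNBS. Of 9 other sterol enzymes and branches, 6 rose in TRUC, 5 in anti-CD40, 3 in IL-10 deficiency, 2 in DSS, 1 in TCT and 0 in DNBS, and 2 fell in DSS, IL-10 deficiency and anti-CD40, 1 in TRUC and TCT and 0 in DNBS. Cyp51, the lanosterol demethylase, rose in IL-10 deficiency (1.60), TRUC (1.46) and anti-CD40 (1.12). Soat2, which esterifies cholesterol, rose in all models but DNBS, from 1.77 in DSS to 3.27 in TCT, at low levels of 0.26 to 1.64 CPM in the control mice and up to 11.1 CPM in colitis. Nus1, a subunit of the enzyme that makes dolichol, rose in 4 models (0.77 to 1.63). Cyp27a1, a mitochondrial sterol hydroxylase, fell in 5 (-0.89 to -2.40), from 72.4 ± 11.2 CPM (SD, n = 3) in the Rag2-/- controls to 13.7 ± 1.97 (n = 4) in TRUC.

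Of 10 genes of SREBP processing and sensing, 2 rose and 2 fell in IL-10 deficiency, 2 and 1 in TRUC, 2 and 0 in anti-CD40, 1 and 2 in DSS, 1 and 1 in TCT and 0 and 0 in DNBS, with median log2 fold changes between -0.06 and 0.12. Mbtps1, a protease that cleaves SREBP, fell in 3 models by 0.34 to 0.45. Of 11 genes of sterol export, uptake and LXR, 3 rose and 3 fell in IL-10 deficiency, 3 and 1 in TCT, 2 and 3 in anti-CD40, 1 and 3 in DSS, 1 and 2 in TRUC and 0 and 1 in DNBS. Mylip, a ubiquitin ligase induced by LXR, fell in 5 models (-0.74 to -1.87), for example from 40.9 ± 7.47 CPM in the Rag1 controls to 14.3 ± 3.08 in anti-CD40 (SD, n = 3 each). Npc2, a lysosomal sterol carrier, fell in 4 (-0.38 to -0.49), and Lpcat3 and Nr1h3, the gene of LXR alpha, rose in 3 each, while Lpcat3, which remodels phospholipids, fell in DSS (-0.54).

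Among 18 other genes of fatty acid and glycerolipid synthesis, 8 rose and 4 fell in IL-10 deficiency, 6 and 5 in TRUC, 5 and 3 in DSS, 4 and 5 in anti-CD40, 3 and 6 in TCT, and 1 and 0 in DNBS. Acsl5, an acyl-CoA synthetase like Acsl3, rose in 5 models (0.50 to 0.90), in the direction opposite to that of Acsl3, as did Elovl1, an elongase of very long chains (0.39 to 0.91). Acsl4, another synthetase, rose in DSS, TRUC and IL-10 deficiency (0.58 to 1.27), and Slc25a1, which exports citrate from mitochondria to feed Acly, in IL-10 deficiency, TRUC and anti-CD40 (0.71 to 1.47). Mlxipl, the gene of the glucose-sensing factor ChREBP, fell in 5 models (-1.24 to -2.27), and Acss2, Gpam and Pnpla3 fell in 4 each and Thrsp in 3. Pnpla3 was scarce, with group means from 0.23 CPM in IL-10 deficiency to 2.72 in the Rag1 controls. The lowest of these means lay near the level that a count of 0 would allow. Dgat2, which completes triglycerides, rose in all 3 models on wild-type mice (1.61 to 3.08).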

How the data were processed

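Poly(A) RNA of colon was sequenced from 29 mice. The authors deposited raw read counts per gene, and the submitters' processing notes name GRCm38, Trimmomatic, HISAT2 and HTSeq. The counting settings for strand and shared sequence are not given in the sources used here, and they could move reads between overlapping or near-identical genes. The 18616 genes that averaged 3 or more counts were kept, TMM factors applied, and 1 model over the 9 groups fitted with edgeR 4.0.16 (quasi-likelihood test, R 4.3.3), each model against its own control, with Benjamini-Hochberg adjustment over all of them. The script was checked on simulated data. CPM values used the TMM library sizes. The SE of a log2 fold change was derived from the estimate and the F statistic of its test. Alternatives were DESeq2 1.42.0, other size factors, filters and thresholds, fits on 2 groups, other controls, a replicate block and leaving out each mouse. Members and lists were chosen with earlier results of these data known. Members had the value of every mouse printed where they passed in a direction in 4 or more comparisons, had 1 of the 2 largest changes in a direction of a comparison, or had the smallest p in the test of equal contrasts within their role, and other pathway genes were named where they passed in 3 or more comparisons in a direction. No replicate libraries were duplicates (33 pairs of the same group, smallest chi-square per degree of freedom 3.42). Floors cover counting error only.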

Additional observations from a re-analysis of the deposited data

Results flagged for a closer look

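Among the 60 sets of 4 mice examined (30 members in TRUC and in IL-10 deficiency), 2 held a mouse far from the other 3, where chance gives about 1 in 20. Fads2 stood at 72.5 CPM in IL-10 deficiency mouse 4 and at 324 to 329 in the others. Acaca stood at 77.1 CPM in IL-10 deficiency mouse 1 and at 74.1 to 74.5 in the others, a small gap in a narrow group.

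For 27 of the 30 members the change differed among the 6 models, by the test of equal contrasts (edgeR's quasi-likelihood F test, Benjamini-Hochberg adjusted over all genes), where 60.5% of all genes did. Among mevalonate enzymes the adjusted p was 2.26e-05 for Mvk, 9.45e-05 for Mvd, 0.000155 for Pmvk, 0.00102 for Acat2, 0.00127 for Hmgcs1 and 0.00169 for Idi1. For the squalene steps the adjusted p was 0.00144 for Fdft1, 0.00184 for Sqle and 0.0242 for Lss. The late sterol enzymes had adjusted p values of 8.69e-06 for Nsdhl, 9.24e-06 for Tm7sf2, 4.28e-05 for Ebp, 0.000282 for Sc5d, 0.00184 for Msmo1, 0.00266 for Dhcr7 and 0.0187 for Hsd17b7. Regulators had 0.00077 for Srebf2, 0.0223 for Stard4 and 0.0296 for Srebf1. Fatty acid genes had 3.89e-05 for Fads1, 0.000115 for Acsl3, 0.000577 for Acaca, 0.00228 for Fasn, 0.00724 for Scd2, 0.037 for Fads2, 0.038 for Acly and 0.0436 for Elovl6.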

How the results depend on the processing

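Of 73 changes of members past the threshold, 0 reversed in any alternative, 47 passed in every one and 50 without each mouse in turn. The number that rose in DNBS was 6 with DESeq2, and the number that fell there was 2 with DESeq2 and 0 at an adjusted p of 0.01. In DSS 0 rose at 0.01, while 6 fell at 0.01 and 5 with the 2 groups fitted alone. In TCT 7 rose with DESeq2 or against the Rag2-/- or wild-type controls and 1 at 0.01, and 7 fell with DESeq2 and 2 at 0.01 or against either other control. In anti-CD40 7 rose at 0.01 and 8 with DESeq2 or the 2 groups alone. In TRUC 4 fell with DESeq2, with the 2 groups alone and with the replicate block. The cause was not tested, and the shares of all genes at these settings are not given here. Leaving out each mouse gave 0 to 2 higher and 0 to 1 lower in DNBS, 0 to 1 and 6 to 10 in DSS, 0 to 5 and 2 to 4 in TCT, 5 to 16 and 1 to 1 in anti-CD40, 16 to 18 and 2 to 2 in TRUC, and 17 to 18 and 2 to 2 in IL-10 deficiency, and 24 to 28 members whose change differed among the models (25 with edgeR's filterByExpr, chosen after seeing the data). Same-numbered mice did not deviate together (r from -0.05 to 0.06). The labels do not state that the numbers pair mice, and with so few mice per group this check cannot exclude it. With the replicate block 16 members rose and 4 fell in TRUC, and 19 and 2 in IL-10 deficiency. Groups of 3 limit the precision, and members with few counts, such as Fdps, had standard errors of 0.41 to 0.44.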

Other observations

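Single mice stood out in a few members. IL-10 deficiency mouse 4, low in Fads2 (72.5 CPM), had 197 CPM of Elovl6 and 200.2 of Acly. Insig1 was at 54.3 CPM in Rag1 control mouse 4 and at 246 and 151 in the others, mouse 4 being the lowest in every sterol enzyme of its group. DSS mouse 8 had 216 CPM of Scd2, against 746 and 800.1 in the others, and summed neutrophil markers of 2333 CPM, against 492 and 746, and DNBS mouse 11 had summed squamous markers of 259 CPM, against 16.4 and 12.7. These values were picked after they had been seen.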
